A study of Xenopus laevis with 6 samples.

Results

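The genes described here encode the proteins of the cytosolic ribosome in gastrulae of Xenopus laevis, the African clawed frog. They were chosen by name: rows of the count tables starting with rpl or rps and a number, with rplp or with rpsa, leaving out the rps6k kinases. This rule took 66 of the 45099 gene rows, 39 for the large subunit, 26 for the small subunit and 1, rps19bp1.L, that names a different protein. Of the 66 rows, 34 carried the suffix L and 29 the suffix S, and 3 carried neither.

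A ribosome is built of a large and a small subunit, each an assembly of ribosomal RNA and of proteins mostly present once per particle, so that cells must make these proteins in balanced amounts. Their mRNAs are among the most abundant in growing cells, and they share a pyrimidine-rich start, the terminal oligopyrimidine tract, through which growth signals control their translation together. In Xenopus the egg carries a large maternal store of ribosomes, and embryos begin to accumulate new ribosomal protein mRNAs after the zygotic genome is switched on. Xenopus laevis is an allotetraploid that arose by hybridisation, and many of its genes persist as a pair of copies (homeologs) named L and S after the long and short chromosome sets.

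The study compared 3 dkk embryos with 3 control embryos, all at stage 11.5, a gastrula stage. The dkk embryos had received 100 pg of dkk mRNA on the animal side of both cells at the 2-cell stage; Dickkopf proteins are secreted antagonists of canonical Wnt signalling. The control embryos were uninjected, so that the injection itself was not matched in the controls. Each library was made from the polyadenylated RNA of 1 whole embryo, and each of the 3 clutches, the offspring of 1 mating each, gave 1 dkk embryo and 1 control sibling.

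Reads in genes numbered 17460820 to 19880568 per embryo. The row dkk1.S stood at 511, 473 and 725 CPM in dkk embryos 1 to 3, against 11.9, 19.9 and 13.9 CPM in the control siblings. The other copy, dkk1.L, stood at 2.41, 2.17 and 9.07 CPM in dkk embryos, against 13.001, 17.8 and 17.5 CPM in controls. CPM, the level of a row used throughout, are counts relative to the library's reads in genes with enough reads to be tested. They were scaled between libraries by the trimmed mean of M values (TMM). The row dkk1.S rose in dkk embryos, while the labels do not say which dkk copy was injected. Genes of the early germ layers (t, eomes, sox17a, gsc, nog, grhl3 and tp63) were present in 12 rows, and their summed level was 991 to 1088 CPM in dkk embryos and 1348 to 1685 CPM in controls. Genes of later muscle and blood, actc1 and hba1, summed to 0.363 to 8.69 CPM in dkk embryos and 1.57 to 8.45 CPM in controls. Since whole embryos were sequenced, fewer cells of a type and less RNA per cell cannot be told apart.

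Of the 66 rows, 62 had enough reads to be tested and 4 did not. The rows rpl37a.1 and rps24.1 had no read in any embryo, which allows up to 3 reads per embryo at 95% confidence, for counting error only. The rpl3l rows, for a paralogue of rpl3 known from mammalian striated muscle, were close to that floor. The L row had 2, 0 and 4 reads in dkk embryos and 3, 1 and 3 in controls, and the S row had 0, 0 and 4 reads in dkk embryos and 0, 0 and 1 in controls. No row was found for rplp2 or rpsa, or for fau and rack1, whose products also belong to the ribosome. The RefSeq gene table of the assembly Xenopus_laevis_v10.1 lists 80 gene names under the same rule, of which 47 had no row under that name and were not analysed here. The 66 rows carry 38 gene names, of which 35 were tested when L and S copies were summed, rps19bp1 among them. The values below therefore do not describe the whole ribosome.

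Together the 66 rows held 0.707%, 0.909% and 0.730% of the reads in genes in dkk embryos 1, 2 and 3, against 0.556%, 0.798% and 0.697% in their control siblings. The share was highest in clutch 2 in both groups and higher in the dkk embryo of each sibling pair, by 1.27, 1.14 and 1.05 times in clutches 1, 2 and 3, though with TMM scaling the ratio in clutch 3 was 0.994. The ranges of the groups overlapped. The means were 0.782% ± 0.111 in dkk embryos and 0.684% ± 0.121 in control embryos (SD, n = 3 each), a difference smaller than either SD. The mean ratio within pairs was 1.15 ± 0.113 (SD, n = 3 pairs). No p-value is given for a sum over chosen genes.

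**Figure D1:**
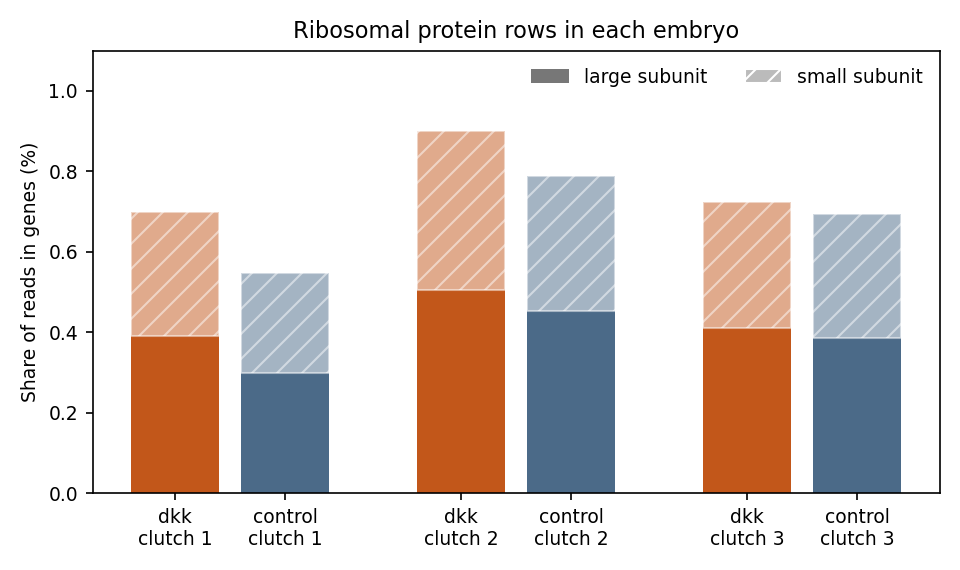
Share of the reads in genes (%, y axis) held by ribosomal protein rows in each of the 6 embryos, with solid bars for large subunit rows and hatched bars above them for small subunit rows, the dkk embryo left of its control sibling in each clutch. The dkk bar is the taller of the pair in all 3 clutches, by 1.27, 1.14 and 1.05 times over all rows (0.994 in clutch 3 with TMM scaling), and both embryos of clutch 2 exceed those of the other clutches.

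Both subunits followed this pattern. Large subunit rows held 0.390%, 0.505% and 0.410% of reads in dkk embryos, against 0.299%, 0.452% and 0.385% in control siblings, or 1.30, 1.12 and 1.06 times. Small subunit rows held 0.309%, 0.395% and 0.315% in dkk embryos, against 0.248%, 0.338% and 0.308% in control siblings, or 1.24, 1.17 and 1.02 times. The ratio was thus highest in clutch 1 and lowest in clutch 3 for each subunit. The large subunit took 54.6% to 57.2% of the reads of both subunits in the 6 embryos. With TMM scaling the ratio for all rows together was 1.27, 1.16 and 0.994 in clutches 1, 2 and 3.

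Whether dkk changed single genes was tested with edgeR's quasi-likelihood test, with the clutch as a block and Benjamini-Hochberg adjustment over the 21643 genes tested. No ribosomal protein row passed an adjusted p of 0.05 in either direction, against 0.106% of all genes that were higher and 0.467% that were lower in dkk embryos. DESeq2's Wald test called none either, against 124 higher and 268 lower of 21289 genes. At an unadjusted p under 0.05, edgeR gave 10 of 62 rows higher in dkk embryos and none lower, against 3.63% of all genes higher and 4.19% lower; of the 6291 genes at least as abundant as the least abundant ribosomal protein row, 3.47% were higher at that threshold. DESeq2 gave 8 rows higher at that threshold, against 1.78% of all genes. The edgeR count of 10 was 21 with upper-quartile scaling (4.32% of all genes higher) and 0 without the block (1.20%). It was 1 without the pair of clutch 1 (2.01%), 2 without that of clutch 2 (2.01%) and 38 without that of clutch 3. In that last fit 9.73% of all genes were higher at the same threshold, and 2 rows (3.23%), rpl8.S among them, passed the adjusted p, against 1.53% of all genes higher. With the block, the p-values here measure the spread between these 3 sibling pairs, or between those kept. Without it they measure the spread between embryos of a group.

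The fitted log2 fold changes of the 62 rows were all above 0, from 0.01 for rpl3.S to 0.55 for rpl24.L, with a median of 0.20. Over all genes tested 49.7% were above 0 and the median was -0.00131. Among the 6291 abundant genes, 44.3% were above 0 and the median was -0.02. Large subunit rows had a median of 0.23 and small subunit rows of 0.16. No row was higher in all 3 dkk embryos than in all 3 controls, a pattern that 2.66% of all genes showed.

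The shift differed in size between the sibling pairs. In clutch 1 all 62 rows were higher in the dkk embryo than in its control sibling, with a median log2 ratio of 0.35. In clutch 2, 59 of 62 were higher, with a median of 0.24, and the exceptions were rplp0.L, rplp0.S and rpl3.S. In clutch 3, 31 of 62 were higher with TMM scaling and 50 with library size alone, and the median with TMM was 0.000738. With library size alone the median log2 ratio in clutch 3 was 0.0758 for these rows and 0.0858 for all genes. Over all genes the shares above 0 with TMM scaling were 49.9%, 48.6% and 51.4% in clutches 1, 2 and 3.

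In all, 30 of the 62 rows (48.4%) were higher in the dkk embryo of every pair, against 13.4% of all genes. All rows come from the same 3 sibling pairs, so counts of rows are not counts of independent observations. The ratio was lowest in clutch 3 for 52 rows (83.9%), against 37.8% of all genes and 46.6% of the 6291 abundant ones. In clutch 3, 21 of 36 large subunit rows and 9 of 25 small subunit rows were above 0. Upper-quartile scaling gave 42 rows above 0 in clutch 3, with a median log2 ratio of 0.0515 for the 62 rows and 0.0616 for all genes. Relative to the median of all genes, the median of the 62 rows was 0.35, 0.25 and -0.01 in clutches 1, 2 and 3. Scaling moves all rows of a library alike, so this difference can hardly depend on it.

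The dkk and control embryos also differed in germ layer genes. Of the 11 rows tested, 3 fell and none rose (edgeR, adjusted p under 0.05), against 0.467% and 0.106% of all genes. The rows that fell were t.L, t.S and tp63.S, encoding the mesodermal factor brachyury and the epidermal factor p63. Of these, t.L and t.S are copies of the same gene, and the list was chosen with earlier results of these data known. The row tp63.L had too few reads to be tested, with 0, 0 and 0.136 CPM in dkk embryos, against 0.583, 0.218 and 0.253 CPM in controls. The t rows fell in all 3 clutches, to 106, 112 and 106 CPM for t.L in dkk embryos, against 305, 331 and 321 CPM in controls. Over the 11 rows, 6 had a log2 fold change above 0 and the median was 0.06, with median log2 ratios of -0.20, -0.44 and 0.46 in clutches 1, 2 and 3.

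The dkk embryo of clutch 3, where the median ribosomal protein ratio was near 0 with TMM scaling, stood apart in some of these rows. The organizer gene row gsc.L had 19.1, 12.0 and 86.8 CPM in dkk embryos, against 14.3, 17.9 and 14.4 CPM in controls. The mesodermal row eomes.S had 52.9, 51.1 and 122 CPM in dkk embryos, against 80.9, 73.3 and 63.6 CPM in controls. Among rows above 0 were gsc.S (log2 fold change 1.19, edgeR adjusted p = 0.30) and eomes.L (0.46, adjusted p = 0.22). The part of these values in the ribosomal protein ratios was not tested.

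**Figure D2:**
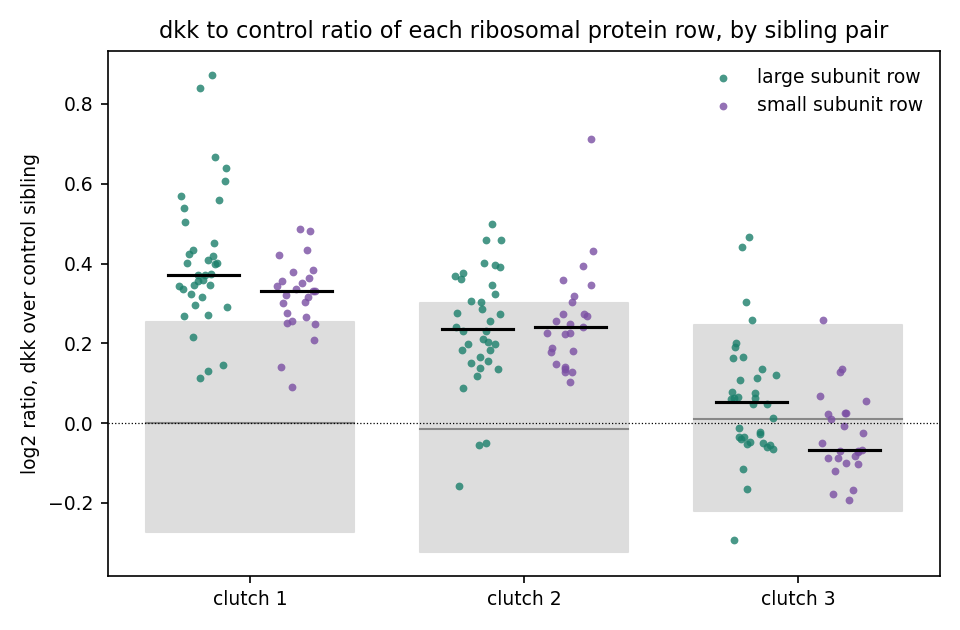
Log2 ratio of the dkk embryo over its control sibling (y axis) for each ribosomal protein row tested, by clutch (x axis), with large subunit rows left and small subunit rows right, black lines at their medians, and grey boxes and lines for the middle range (25th to 75th percentile) and median of all 21643 genes. Nearly all points lie above 0 in clutches 1 and 2 (36 and 33 of 36 large subunit rows, 25 and 25 of 25 small subunit rows). In clutch 3 they lie on both sides (21 of 36 and 9 of 25 above with the TMM scaling drawn). The row rps19bp1.L is not drawn. With library size alone 50 of all 62 rows were above 0 in clutch 3, with a median of 0.0758, against 0.0858 for all genes.

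Among large subunit genes, the smallest p-values belonged to rpl24 and rpl19, whose proteins form bridges to the small subunit. The row rpl24.L had 62.6, 87.9 and 46.2 CPM in dkk embryos 1, 2 and 3, against 34.9, 69.2 and 33.4 CPM in control siblings. It was higher in the dkk embryo of every pair, most so in clutch 1, while the control embryo of clutch 2 lay above the dkk embryos of clutches 1 and 3. Its log2 fold change was 0.55 ± 0.14 (SE), with an edgeR p of 0.0049 and an adjusted p of 0.25.

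The row rpl19.S had 112.5, 144 and 53.6 CPM in dkk embryos, against 85.2, 109 and 39.5 CPM in control siblings. Its log2 ratio was even across pairs, at 0.40, 0.40 and 0.44, and both embryos of clutch 3 lay below every embryo of the other clutches. The fitted log2 fold change was 0.41 ± 0.11 (SE), with an edgeR adjusted p of 0.25.

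The row rpl8.S, for a protein close to the peptidyl transferase centre, had 103 CPM, 118 CPM and 79.7 CPM in dkk embryos, against 56.0, 85.6 and 80.9 CPM in control siblings. The dkk embryo was higher in clutches 1 and 2, and the siblings of clutch 3 were close. Its log2 fold change was 0.44 ± 0.17 (SE), with an edgeR adjusted p of 0.58. Without the sibling pair of clutch 3 it was 0.67 and passed, with an adjusted p of 0.0466.

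Other large subunit rows with small p-values were modestly higher. The row rpl23.S, for a protein at the face that meets the small subunit, had 101 CPM, 154 CPM and 107 CPM in dkk embryos, against 78.1, 109 and 102 CPM in control siblings (log2 fold change 0.32 ± 0.12, SE). The row rpl17.S, for a protein beside the exit tunnel of the new peptide chain, had 122, 167 and 96.7 CPM in dkk embryos, against 94.97, 129.6 and 89.7 CPM in control siblings (0.28 ± 0.11, SE). Both were higher in the dkk embryo of every pair, least in clutch 3, with overlapping groups.

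The large subunit row rpl29.S had 60.9, 74.3 and 50.4 CPM in dkk embryos, against 47.0, 57.1 and 42.1 CPM in control siblings (log2 fold change 0.34 ± 0.12, SE). The copies of rpl27a-like had log2 fold changes of 0.37 for L and 0.32 for S. Each of these 3 rows was higher in the dkk embryo of every pair. Their edgeR adjusted p-values lay between 0.51 and 0.64.

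In the small subunit the smallest p-value belonged to rps26.L, for a protein near the mRNA exit. The row rps26.L had 67.9, 116 and 83.8 CPM in dkk embryos, against 48.6, 97.5 and 70.0 CPM in control siblings. It was higher in the dkk embryo of every pair, but the control embryo of clutch 2 lay above the dkk embryos of clutches 1 and 3. Its log2 fold change was 0.33 ± 0.12 (SE), with an edgeR adjusted p of 0.48.

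The stalk of the large subunit, which recruits the translation factors, is built on the protein of rplp0 with rplp1 and rplp2. The row rplp0.L had 169 CPM, 242 CPM and 225 CPM in dkk embryos, against 111, 250.1 and 233 CPM in control siblings. It was higher in the dkk embryo of clutch 1 alone, and its log2 fold change was 0.17 ± 0.15 (SE; edgeR adjusted p = 0.87). Without the pair of clutch 1 that value turned to -0.06.

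The copy rplp0.S had 58.9, 85.7 and 89.9 CPM in dkk embryos, against 43.8, 89.0 and 82.6 CPM in control siblings (log2 fold change 0.16). The row rplp1.L had 114, 188 and 123 CPM in dkk embryos, against 89.8, 171 and 118 CPM in control siblings (0.18). In both rows the control embryo of clutch 1 was the lowest of the 6.

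The smallest fold change belonged to rpl3.S, for a large protein that reaches towards the peptidyl transferase centre. It had 386, 451 and 273 CPM in dkk embryos, against 332, 503 and 278 CPM in control siblings, so that only the pair of clutch 1 had more in the dkk embryo. Its log2 fold change of 0.01 ± 0.10 (SE) was -0.00439 without the block and -0.10 without the pair of clutch 1. The row rps19bp1.L, whose protein binds rps19 and is not part of the ribosome, had 92.2, 90.1 and 47.6 CPM in dkk embryos, against 82.8, 87.6 and 37.3 CPM in control siblings (log2 fold change 0.18; edgeR adjusted p = 0.81).

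Ribosomal protein genes were highest in clutch 2 and lowest in clutch 1 or clutch 3. The 3 clutches were compared in the same edgeR fit with the treatment as a term, so that each clutch entered with its dkk and its control embryo. Of the 62 rows, 37 (59.7%) differed between clutches at an adjusted p of 0.05, against 22.2% of all genes. Precision grows with abundance, and the median mean level was 98.7 CPM over these rows and 10.9 CPM over all genes; of the 6291 abundant genes, 33.2% differed. The rows called were 22 of 36 for the large subunit, 14 of 25 for the small subunit, and rps19bp1.L. The count was 19 (30.6%, against 14.6% of all genes) without the pair of clutch 1 and 22 (35.5%, against 17.6%) without the treatment term. Without the pair of clutch 2 it was 9, and the share of 14.5% was then below the 20.8% of all genes. Clutch, parents and the handling of a mating cannot be told apart.

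Clutch 2 was the highest in 60 of the 62 rows (96.8%), against 29.99% of all genes and 39.8% of the 6291 abundant ones. The other 2 rows, rpl24.S among them, were highest in clutch 1. Clutch 1 was the lowest in 43 rows and clutch 3 in 19. In 28 rows (45.2%) the embryos of the 3 clutches did not overlap, against 25.7% of all genes and 31.9% of the abundant ones.

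Pairwise tests located these differences. Clutch 2 exceeded clutch 1 in 18 rows and fell below it in none (edgeR, adjusted p under 0.05; 3.41% and 2.03% of all genes), with a median log2 difference of 0.55. Clutch 3 fell below clutch 2 in 19 rows and exceeded it in none (8.36% and 4.75% of all genes), with a median of -0.41 and all 62 values below 0. Clutch 3 exceeded clutch 1 in 6 rows and fell below it in 7 (9.2% and 11.2% of all genes), with a median of 0.14. The rows called in the last contrast went both ways, at shares close to those of all genes. By sign alone, clutch 2 against clutch 1 also had exceptions, with 60 of 62 values above 0.

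In rpl19.S, whose levels are given above, clutch 3 was the lowest, by a log2 difference of -1.09 ± 0.13 from clutch 1 and -1.45 ± 0.13 (SE) from clutch 2 (edgeR adjusted p over clutches = 0.0018). For rps19bp1.L it differed by -1.05 ± 0.15 from clutch 1 and by -1.07 ± 0.15 (SE) from clutch 2. For rps25.L, a small subunit protein needed for initiation at some viral mRNAs, clutch 3 differed from clutch 2 by -0.85 ± 0.14 (SE). For rpl17.L the difference was -0.88 ± 0.14, and for rpl3.S -0.79 ± 0.13 (SE).

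The row rpl17.L had 123, 176 and 84.7 CPM in dkk embryos, and 113, 141 and 86.7 CPM in control siblings. Its clutches did not overlap, with clutch 3 lowest and clutch 2 highest.

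A second pattern, with clutch 1 lowest, was led by rpl5.L, for the protein that carries a small ribosomal RNA into the large subunit and, free of ribosomes, binds the p53 regulator Mdm2. It had 185 CPM, 322 CPM and 201 CPM in dkk embryos, and 135 CPM, 274 CPM and 199 CPM in control siblings. Clutch 2 exceeded clutch 1 by a log2 difference of 0.90 ± 0.14 (SE; edgeR adjusted p over clutches = 0.0096). The same contrast was 0.82 ± 0.13 for rplp1.L and 0.89 ± 0.14 (SE) for rps26.L. In rplp0.L and rplp0.S clutch 3 was also high, exceeding clutch 1 by 0.73 ± 0.18 and 0.76 ± 0.16 (SE).

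The L and S copies of a gene were compared in their clutch pattern. Of the 27 genes with both copies tested, both copies differed between clutches in 12, 1 copy in 8 and neither in 7. Both differed in 44.4% of these genes, against 8.49% of all 4549 such homeolog pairs. Those pairs were not matched for abundance, and single rows were also called more often here (59.7%, against 22.2% of all genes). A link between copies can therefore not be read from this contrast. The lowest clutch was the same for both copies in 23 of the 27 (85.2%), against 53.2% of all pairs. Since clutch 2 was the highest in nearly all rows, 2 clutches were left to be lowest; among the 656 pairs with both copies highest in clutch 2 the share was 67.7%. In 6 genes, among them rpl17, rpl19, rpl24, rps3a and rps6, both copies were lowest in clutch 3. The copies may share reads where their sequences are alike, so their agreement is not independent.

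Of the 11 germ layer rows tested, 2 (18.2%) differed between clutches, grhl3.L and tp63.S, a share near the 22.2% of all genes. The cardiac actin row actc1.S had 6.27, 8.36 and 0.272 CPM in dkk embryos and 7.70, 5.33 and 1.42 CPM in control siblings (edgeR adjusted p over clutches = 0.0314), with clutch 3 lowest. The part of such differences in the ribosomal protein values was not tested.

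**Figure D3:**
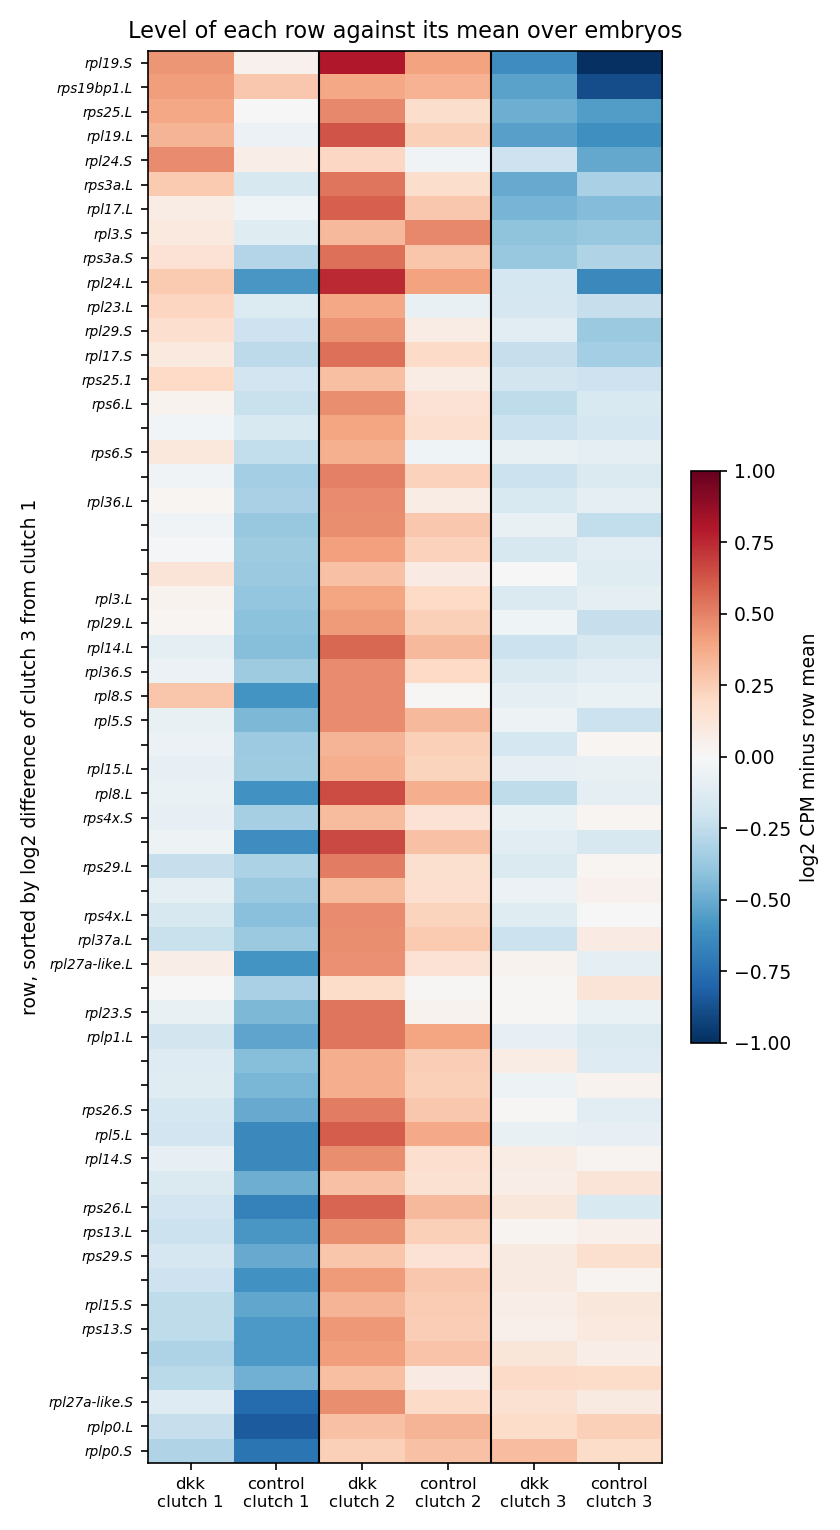
Level of 58 ribosomal protein rows tested (rows, ordered by the difference of clutch 3 from clutch 1) in each embryo (columns, grouped by clutch with dkk left of control; rows of genes named in the text are labelled), as log2 CPM minus the row's mean over the 6 embryos (colour, red above and blue below the mean). The columns of clutch 2 are red in nearly all rows, while clutch 3 is blue at the top, from rpl19.S down, and clutch 1 is blue at the bottom, where rplp0.S and rplp0.L stand.

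Over the set, reads were split about evenly between L and S copies. The L share of a gene is L reads as a percentage of L plus S reads; copies may differ in length and in reads lost to multiple alignment, so a share need not equal the share of transcripts. Over 27 genes the mean L share per gene had a median of 48.6%, with quartiles of 42.1% and 56.8%. Over all 5264 homeolog pairs tested the median was 54.2%, with quartiles of 33.5% and 74.2%. Summed over genes, L copies held 51.4%, 52.2% and 51.2% of the paired reads in dkk embryos and 50.9%, 51.6% and 52.2% in control siblings.

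No ribosomal protein gene had a mean L share beyond 75% or below 25%, whereas 40.7% of all pairs did. Abundant pairs were less uneven: of the 1430 pairs with at least as many reads as the least abundant ribosomal protein pair, 28.9% lay beyond those bounds, with quartiles of 39.4% and 68.6%. The spread between embryos was small as well, with a median SD over 6 embryos of 2.61 percentage points, against 5.05 over all pairs and 3.21 over the abundant ones. The same copy was ahead in all 6 embryos in 23 of the 27 genes, L in 10 and S in 13. In rpl14, rpl15, rpl17 and rps4x the leading copy varied between embryos.

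The most L-weighted genes were rplp0 and rps6. The L share of rplp0 was 74.1%, 73.8% and 71.4% in dkk embryos, against 71.7%, 73.7% and 73.8% in control siblings, so that L reads were 2.73 times S reads overall. That of rps6, the substrate of the S6 kinases, was 71.8% ± 1.85, against 73.1% ± 1.22 for rplp0 (SD, n = 6 embryos), and the shares of this pair did not differ beyond their spread. Also L-weighted were rps29 at 63.5% ± 2.95 and rpl24 at 62.6% ± 7.06 (SD, n = 6 embryos). The share of rps6 was at least 69.2% in every embryo, a level that only rpl24, in both embryos of clutch 2, reached among the 25 genes below it. The shares of rps29 and rpl24 did not differ beyond their spread.

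The most S-weighted gene was rps3a, with 32.6%, 30.6% and 29.1% L reads in dkk embryos, against 32.8%, 29.4% and 30.4% in control siblings. Its S reads were 2.25 times its L reads. It was followed by rpl23 at 36.0% ± 3.78, rpl19 at 37.1% ± 3.95, rps13 at 37.9% ± 0.515 and rpl36 at 39.4% ± 1.15 (SD, n = 6 embryos). Of these 4, rpl36 was higher than rps13 in 5 of 6 embryos, and the other neighbours in this order did not differ beyond their spread. The share of rps13 was the steadiest of those named, between 37.2% and 38.6% in every embryo.

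**Figure D4:**
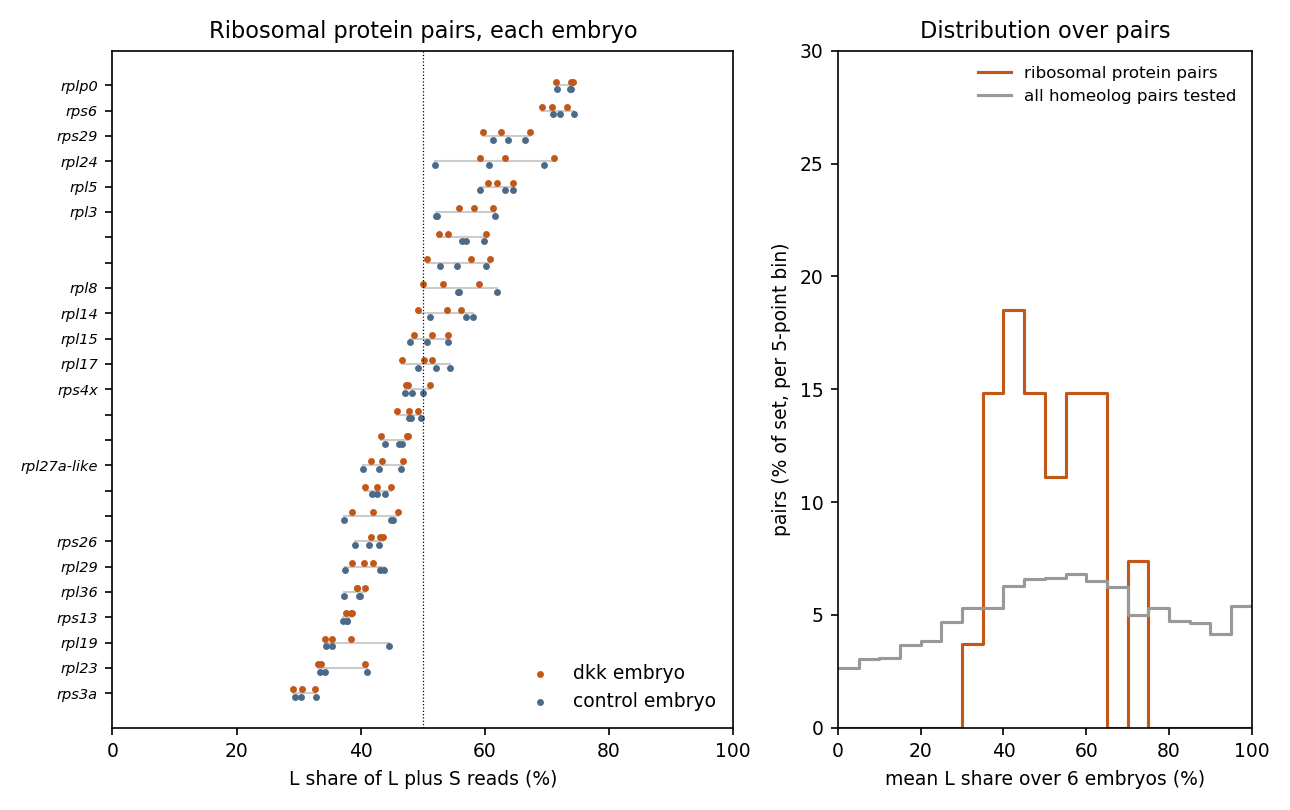
Left, L share of L plus S reads (%, x axis) for 25 ribosomal protein genes (y axis, sorted by mean, with labels for those named in the text) in the 3 dkk and 3 control embryos, with a grey line from the lowest to the highest embryo and a dotted line at 50%; right, the distribution of the mean share over the 27 genes and over all 5264 homeolog pairs tested (y axis, % of the set per bin of 5 points). The ribosomal protein genes lie between 30.8% (rps3a) and 73.1% (rplp0), while all pairs spread from 0.134% to 99.9%.

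Whether dkk changed the balance of copies was tested within embryos, as the treatment term on the L to S ratio in an edgeR quasi-likelihood fit over the 5264 pairs. None of the 27 genes passed an adjusted p of 0.05, against 0.19% of all pairs, and none had an unadjusted p under 0.05, against 8.17% of all pairs. A limma fit on the log2 ratios called only 1 of the 5264 pairs, so that no call among the 27 genes says little. The log2 difference of dkk from control was -0.22 ± 0.11 (SE) for rpl8 and 0.23 ± 0.15 (SE) for rpl24. The median size over the 27 genes was 0.0485, against 0.205 over all pairs and 0.110 over the 1430 abundant ones. Of those abundant pairs, 10.5% had an unadjusted p under 0.05 in the edgeR fit.

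Between clutches 1 gene of the 27, rpl24, changed its copy balance (edgeR adjusted p = 0.0357), against 14.5% of all pairs and 21.1% of the 1430 abundant ones. At an unadjusted p under 0.05 there were 5, or 18.5%, against 33.1% of all pairs and 41.3% of the abundant ones. The L share of rpl24 was 59.3%, 71.0% and 63.2% in dkk embryos of clutches 1, 2 and 3, and 51.9%, 69.5% and 60.6% in their control siblings. Clutch 2 was highest in both groups and clutch 1 lowest, and the 3 clutches did not overlap. The limma fit did not call it, with an adjusted p of 0.0621. For edgeR the adjusted p was 0.163 without clutch 1, 0.293 without clutch 2 and 0.000143 without clutch 3. With at least 50 reads per embryo edgeR gave an adjusted p of 0.0398.

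The copies of rpl24 ran differently over the clutches. The row rpl24.S had 43.0, 35.8 and 26.9 CPM in dkk embryos and 32.4, 30.3 and 21.7 CPM in control siblings, and clutch 2 differed from clutch 1 by -0.18 ± 0.18 (SE; edgeR adjusted p = 0.58). For rpl24.L, given above, clutch 2 exceeded clutch 1 in both groups, by a log2 difference of 0.73 ± 0.17 (SE; edgeR adjusted p = 0.054).

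The other parts of the translation machinery were set beside these genes. Of 85 rows for mitochondrial ribosomal proteins, 77 were tested with edgeR and none passed for dkk in either direction. None had an unadjusted p under 0.05, against 3.63% of all genes higher and 4.19% lower. Their median log2 fold change was 0.03, with 47 of 77 above 0. The rows with the smallest p, mrps35.S, mrps30.L, mrpl54.S and mrpl44.L, had adjusted p-values of 0.76 or more, and mrps30.L, the largest in size, had 5.20, 24.2 and 13.9 CPM in dkk embryos, against 23.0, 26.2 and 15.6 CPM in control siblings. Of these 77 rows 24 (31.2%) differed between clutches, against 22.2% of all genes and 33.2% of the 6291 abundant ones. That abundant set starts at 31.7 CPM, the lowest mean of a cytosolic row tested. It was not matched to this list, whose 85 rows summed to 1304 to 1725 CPM in controls, nor to the lists below.

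Of 79 translation factor rows, 75 were tested with edgeR and none passed for dkk. At an unadjusted p under 0.05, 2 were higher and 2 lower (3.63% and 4.19% of all genes). Between clutches 27 (36%) differed, against 22.2% of all genes and 33.2% of the 6291 abundant ones. The median log2 fold change was 0.05, with 49 of 75 above 0. The lowest p belonged to eif1.S, encoding a factor of start codon choice, with 183 CPM, 249 CPM and 175 CPM in dkk embryos, against 243, 296 and 212 CPM in control siblings (log2 fold change -0.31, adjusted p = 0.35). The dkk embryo was the lower of each pair. The copy eif1.L also had a negative value of -0.25, while eif3j-like.L and eif3j-like.S, for an initiation factor, had 0.34 and 0.26.

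For ribosome biogenesis, the assembly of subunits in the nucleolus, 43 rows were tested with edgeR and none passed for dkk. At an unadjusted p under 0.05, 2 were higher and none lower (3.63% and 4.19% of all genes). Between clutches 13 (30.2%) differed, against 22.2% of all genes and 33.2% of the 6291 abundant ones. Their median log2 fold change was -0.00681, with 21 of 43 above 0. The rows with the smallest p were utp3.S (0.33), nop16.L (0.36), rrs1.S (0.23) and nmd3.L (0.20), in log2 fold change. The median log2 ratios of these 3 lists lay between -0.11 and 0.11 in each sibling pair, against 0.35, 0.24 and 0.000738 for the cytosolic ribosomal proteins in clutches 1, 2 and 3. Whether the lists differ from each other was not tested.

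Neither a ribosomal protein row nor a row of these 3 lists was among the 97 genes of the authors' deposited table. With 97 genes listed beside 45099 gene rows counted, this absence says little.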

How the data were processed

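For each embryo the authors deposited unnormalised counts of reads per gene row. The submitters' processing notes name TopHat2, SAMtools and HTSeq. Versions, settings, genome build and annotation were not given in the sources used here. Per the file headers, the authors' deposited table of 97 genes gives a log2 fold change and adjusted p-values for each gene; it was used only to look members up. Rows that name no gene held 25.6% to 28.2% of counted reads, among them reads with more than 1 alignment (15.9% to 17.6%) and ambiguous reads (2.03% to 2.19%), and were left out. Reads with several alignments went uncounted, so that levels of L and S copies, and of genes with processed pseudogenes, are uncertain to that extent.

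Tests used R 4.3.3 and edgeR 4.0.16: TMM scaling, filterByExpr (minimum count 10, total 15), robust quasi-likelihood F tests, the mating pair as a block and Benjamini-Hochberg adjustment. The series' design text makes the embryos of a replicate siblings, and deviations from group means correlated at 0.674, 0.552 and 0.622 within pairs. Log2 ratios per sibling pair used a prior count of 2. Homeolog pairs needed at least 10 L plus S reads in every embryo and 10 reads of each copy in all. Tests were first run on simulated counts. DESeq2 1.42.0 and limma 3.58.1 were alternatives; others were scaling, filters, summed copies, no block and leaving out each replicate. Comparison with genes and homeolog pairs of at least the members' abundance, the copies' clutch pattern over all pairs, and the pairwise clutch tests, were added after seeing the data.

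The members and lists were chosen with earlier results of these data known. Genes named are the 10 rows with the smallest p for dkk and for clutch, the 5 genes with the highest and the 5 with the lowest L share, the gene whose copy ratio passed the test, rplp0 and rplp1, rps19bp1, dkk1 and up to 4 rows per list, except that some of these items are not reported here; others serve as exceptions or as examples chosen after their values were seen. Lengths and sequences were not used here, so that a further part of the naming rule, on reads per coding length, could not be applied and levels are not compared between genes.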

Additional observations from a re-analysis of the deposited data

Results flagged for a closer look

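The L to S ratio of rpl24 differed between clutches, by edgeR's test of the ratio over both clutch terms (adjusted p = 0.0357). The L share was 59.3%, 71.0% and 63.2% in dkk embryos and 51.9%, 69.5% and 60.6% in control siblings of clutches 1, 2 and 3. With 3 embryos per group, no group was large enough to be searched for single outlying embryos.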

How the results depend on the processing

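With 3 sibling pairs, 1 pair decides many calls. For dkk, edgeR called 124 of all genes and 0 ribosomal protein rows. All genes called numbered 14 with no replicate block, 392 with DESeq2's Wald test, 343 with no filter and 58 to 659 when 1 replicate was left out. Ribosomal protein rows called numbered 0 to 2 when 1 replicate was left out, the 2, rpl8.S among them, without replicate 3, and 0 in the other settings. The share of rows above 0 was 98.4% without the block and 93.5% to 100% when 1 replicate was left out, and the median log2 fold change was 0.11 to 0.29. Direction turned for rpl3.S without the block (-0.00439) and without replicate 1, and for rplp0.L without replicate 1; leaving out 1 replicate gave -0.097 to 0.090 for rpl3.S and -0.057 to 0.283 for rplp0.L. Of 200 values of the 20 named rows under alternatives, the other 197 kept their direction, and the cause was not tested.

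Between clutches, 37 rows (59.7%) were called, against 22.2% of all genes. The count was 22 with no treatment term (35.5%, against 17.6%) and 33 with upper-quartile scaling (53.2%, against 22.4%). It was 42 with DESeq2 (67.7%, against 24.3%) and 46 with no filter (74.2%, against 19.4%). Leaving out 1 replicate gave 19 without replicate 1 (30.6%, against 14.6%) and 9 without replicate 2 (14.5%, against 20.8%). Without replicate 3 there were 45 (72.6%, against 15.2%). Leaving out a replicate removes a clutch, so that the test has fewer clutches to compare. All genes called for clutch numbered 3237 to 4642 in those fits.

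For the copy ratio, calls for dkk over all pairs numbered 10: 1 with limma, 1 with at least 50 reads per embryo, 1 with no block, and 1 to 334 when 1 replicate was left out. Of ribosomal protein genes, 0 to 1 was called, rpl3 without replicate 3. That was 1 of 27 genes, in a fit that called 334 of all 5150 pairs. Calls for clutch over all pairs numbered 762: 421 with limma and 349 to 825 when 1 replicate was left out. Of ribosomal protein genes, rpl24 was called, none with limma, and 0 to 3 when 1 replicate was left out. The 3 of 27, rpl24 among them, were called without replicate 3, against 825 of all 5150 pairs. When 1 replicate was left out, the median L share was 48.1% to 49.3% and the mean ratio within pairs 1.09 to 1.21. Since the ratio without TMM scaling was above 1 in every pair, that mean could not turn below 1. The L share per coding length was not run.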
